A study of Mus musculus with 2 samples.

Results

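The brightest sort gate of a circadian reporter was compared with the gate below it in a mouse fibroblast line. The cells were NIH3T3-Rev-VNP1-H2B-iRFP, a derivative of the NIH3T3 fibroblast line. All of them carry a yellow Venus reporter named for Nr1d1, and a nuclear marker in which iRFP, a protein that fluoresces in the near infrared, is joined to histone H2B. They were left unsynchronized, received no treatment per the labels, and were sorted singly into 384-well plates in 4 Venus gates and 2 iRFP gates at 95% confluency. Per plate, the gates were ordered by the median Venus fluorescence of their wells, and gate 4 (brightest) was set against gate 3. Each gate holds 96 wells per plate, so the comparison covers 384 of the 768 wells. All 384 of these cells had at least 1000 detected genes and were kept, out of 767 kept cells in the series. Raw counts were summed over the cells of each gate and plate, and the plates (n = 2) are the replicates. The p-values measure how far gate differences disagree between these plates over the 4 gates. The labels do not say whether the plates came from separate cultures, so this spread may be technical.

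The gates did not overlap in fluorescence. On plate 1, gate 3 spanned 5128417 to 22055648 arbitrary units and gate 4 began at 25370306. On plate 2, gate 3 spanned 5308836 to 22728260 and gate 4 began at 25687712. The median rose 4.45-fold on plate 1 and 3.84-fold on plate 2 between these gates, a wider step than the 2 earlier ones, which were 2.69- and 2.93-fold on plate 1 and 2.83- and 3.05-fold on plate 2. The summed counts of the 4 sums compared ranged from 76418347 to 86612194. Plate 1 holds wells of the high iRFP sort and plate 2 wells of the low iRFP sort, so plate and iRFP sort cannot be told apart. Gate 3 filled well columns 13 to 18 and gate 4 columns 19 to 24 on both plates, so gate and plate position cannot be told apart either. Median forward scatter, a measure of cell size, was 1.16-fold higher in gate 4 on plate 1 and 1.12-fold higher on plate 2. The sorting record's saturation flag was set for 31 cells of gate 3 and 64 of gate 4 on plate 1, and for 31 and 40 on plate 2. All 12 fibroblast markers examined were detected, and their summed level was 25350 to 25858 CPM (counts scaled to a common library size) in gate 3 and 22650 to 24086 in gate 4. The summed markers of macrophages, led by Lyz2, were at 7.63 to 7.84 CPM in gate 3 and 11.1 to 12.7 in gate 4, with the other 5 of 6 under 1 CPM, and those of epithelial, endothelial, neuronal, muscle and fat cells were lower still.

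Nr1d1 encodes REV-ERB alpha, a nuclear receptor that represses transcription within the circadian clock. The activators CLOCK and BMAL1 (the product of Arntl) bind E-box sequences and drive Nr1d1, Nr1d2, the Period and Cryptochrome genes, Dbp, Tef and Ciart. REV-ERB proteins in turn repress Arntl and other genes through RORE sequences, while DBP and TEF activate genes through D-box sequences. NIH3T3 fibroblasts are known to run this clock individually, each cell at its own phase when the culture is not synchronized.

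Promoter windows of 4 clock genes with different behaviour at this step are shown, each reaching from 250 bases before to 50 bases after a gene start in RefSeq (GRCm38.p6, a build earlier than the GRCm39 of the submitters' processing notes). Capitals mark the E-box CACGTG, the D-box TTANGTAA and the RORE letters TAGGTCA, searched on both strands. The windows are Ciart at chr3:95882179-95882478 on the minus strand, Bhlhe41 at chr6:145865371-145865670 on the minus strand, Per3 at chr4:151044616-151044915 on the minus strand, and the later of 2 Arntl windows at chr7:113207261-113207560 on the plus strand.
Ciart: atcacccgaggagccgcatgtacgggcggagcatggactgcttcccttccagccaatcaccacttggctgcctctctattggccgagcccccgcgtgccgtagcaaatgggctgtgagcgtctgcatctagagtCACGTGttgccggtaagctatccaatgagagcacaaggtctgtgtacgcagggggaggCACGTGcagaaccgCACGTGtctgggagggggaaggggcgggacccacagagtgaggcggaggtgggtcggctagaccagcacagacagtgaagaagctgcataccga
Bhlhe41: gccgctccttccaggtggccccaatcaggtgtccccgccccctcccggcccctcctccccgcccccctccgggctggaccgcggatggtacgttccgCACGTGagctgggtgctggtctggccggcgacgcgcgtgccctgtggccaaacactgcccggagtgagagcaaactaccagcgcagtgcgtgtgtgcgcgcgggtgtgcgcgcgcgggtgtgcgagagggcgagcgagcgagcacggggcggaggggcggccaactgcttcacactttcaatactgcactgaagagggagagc
Per3: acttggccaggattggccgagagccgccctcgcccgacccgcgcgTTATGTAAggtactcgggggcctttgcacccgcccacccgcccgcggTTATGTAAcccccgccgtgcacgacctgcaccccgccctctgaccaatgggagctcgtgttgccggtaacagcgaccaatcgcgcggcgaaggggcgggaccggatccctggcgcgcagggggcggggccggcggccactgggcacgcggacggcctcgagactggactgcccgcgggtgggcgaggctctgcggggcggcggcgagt
Arntl: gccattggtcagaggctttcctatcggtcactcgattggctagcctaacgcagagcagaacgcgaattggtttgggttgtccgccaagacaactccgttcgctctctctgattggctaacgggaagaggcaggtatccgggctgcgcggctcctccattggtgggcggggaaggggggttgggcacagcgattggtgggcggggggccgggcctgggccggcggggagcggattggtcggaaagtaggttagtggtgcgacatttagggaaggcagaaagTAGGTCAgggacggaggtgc
Ciart, with 3 E-boxes, had the largest log2 difference of the clock genes other than Nr1d1 at a mean log2 CPM above 0, and it did not pass the test. Per3, with 2 D-boxes and no E-box in this window, differed by less than its standard error. Arntl, with 1 RORE match after the gene start, was lower in gate 4 without passing the test. Of all 32851 RefSeq windows of this length, 7.15% hold the E-box letters, 2.32% the D-box letters and 2.61% the RORE letters. Of the 21 clock genes with a window, 5 hold the E-box letters, 3 the D-box letters and 2 the RORE letters. All 4 windows shown hold a match. The windows of Nr1d1 and Dbp, the only clock genes called at this step, hold none of these letters. Nor do the window of Nr1d2 and the earlier Arntl window. A match of letters is a description and no evidence of binding.

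The reporter and the gene it is named for rose again in the brightest gate. The YFP feature, which counts reads of the Venus reporter, went from 283 to 671 CPM on plate 1 and from 285 to 659 CPM on plate 2, and gate means were 284 ± 0.915 and 665 ± 8.58 CPM (SD, n = 2 plates). Both gate 4 values lay far above both gate 3 values. The change was 2.34-fold, a log2 difference of 1.23 ± 0.062 (SE, edgeR's quasi-likelihood test, Benjamini-Hochberg adjusted p = 9.6e-04). Because the gates were set by Venus fluorescence, the rise of the reporter's own transcript is a check of the sort and no independent finding. Nr1d1 went from 552 to 1253 CPM on plate 1 and from 531 to 1123 CPM on plate 2, a 2.19-fold rise (1.13 ± 0.060, adjusted p = 9.6e-04). Nr1d1 reads cannot be told apart from reads that a reporter construct carrying Nr1d1 sequence would give, and its exons overlap those of Thra on the other strand. The iRFP reporter was at 40.4 and 40.2 CPM on plate 1 and 17.3 and 19.9 CPM on plate 2, so it differed between plates more than between gates (0.099 ± 0.098, adjusted p = 0.69).

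Most E-box and D-box genes of the clock were higher in gate 4 on both plates, and 2 of them passed the test. Of 13 listed genes, Nr1d1 and Dbp were called higher, none was called lower, and 11 were higher on both plates. From gate 1 to gate 3, 11 of the 13 had been called higher, beside 1.9% of all genes. Over all 18430 genes tested, 0.141% were called higher (26 genes) and 30.0% were higher on both plates. The median log2 difference of the 13 was 0.50, beside -0.0012 over all genes. Dbp, a D-box activator, went from 50.8 to 72.4 CPM on plate 1 and from 56.4 to 79.2 CPM on plate 2 (0.50 ± 0.063, adjusted p = 0.039). It did not pass in the fit limited to the sums of gates 3 and 4, with no replicate block, or with G2/M-rich cells (above the 0.75 quantile of their plate in G2/M transcripts) left out of all gates, where its log2 difference was 0.49. Its exons overlap those of Sphk2 on the other strand, and strand use in counting is not given in the sources used here. Ciart, a repressor of CLOCK and BMAL1, went from 5.33 to 13.2 CPM on plate 1 and from 6.25 to 11.4 CPM on plate 2 (1.07 ± 0.21, adjusted p = 0.091). Nr1d2, which encodes REV-ERB beta, went from 23.9 to 34.3 CPM on plate 1 and from 30.9 to 42.4 CPM on plate 2 (0.49 ± 0.087, adjusted p = 0.076). The E-box repressor Bhlhe41 went from 20.8 to 32.3 CPM on plate 1 and from 29.1 to 38.1 CPM on plate 2 (0.51 ± 0.10, adjusted p = 0.088). None of these 3 passed the adjusted threshold of 0.05, and for Nr1d2 and Bhlhe41 the plates differed by about as much as the gates: plate 2's gate 3 value lay close to plate 1's gate 4 value.

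Per1 and Per2 were higher on both plates at this step, while Per3 was not. Per1, an E-box gene that represses CLOCK and BMAL1, went from 24.2 to 36.8 CPM on plate 1 and from 28.5 to 36.9 CPM on plate 2 (0.49 ± 0.096, adjusted p = 0.089). Per2 went from 8.28 to 12.5 CPM on plate 1 and from 9.77 to 17.4 CPM on plate 2 (0.72 ± 0.22, adjusted p = 0.19), at a low level and with plates that moved by different amounts. Per3 went from 42.8 to 41.5 CPM on plate 1 and from 40.3 to 43.4 CPM on plate 2 (0.030 ± 0.083, adjusted p = 0.91), and the plates pointed in opposite directions. Its level was 15, 23.6, 42.8 and 41.5 CPM in gates 1 to 4 on plate 1 and 16.3, 22.04, 40.3 and 43.4 CPM on plate 2, and its change from gate 1 to gate 3 was a called rise (log2 1.41, adjusted p = 9.3e-04). The E-box repressor Bhlhe40 showed the same course (0.052 ± 0.072, adjusted p = 0.80), after a called rise from gate 1 to gate 3 (log2 0.55, adjusted p = 0.013). Tef, a D-box activator, went from 100.1 to 129 CPM on plate 1 and from 119.5 to 153 CPM on plate 2 (0.36 ± 0.067, adjusted p = 0.079), Cry2 had a log2 difference of 0.34 ± 0.090 with an adjusted p of 0.14, and Usp2 one of 0.70 ± 0.23 with an adjusted p of 0.21. Hlf, a D-box activator and the last of the 13, was under 1 CPM in every sum.

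Arntl was at its lowest level in the brightest gate. It was at 52.4, 42.1, 18.9 and 11.97 CPM in gates 1 to 4 on plate 1 and 42.4, 39.8, 16.9 and 11.9 CPM on plate 2. Its change from gate 1 to gate 3 was a called fall (log2 -1.40, adjusted p = 0.001). At the last step both gate 4 values lay under both gate 3 values, but the log2 difference of -0.58 ± 0.092 missed the threshold (adjusted p = 0.061). With G2/M-rich cells left out of all gates it was -0.91 and passed (adjusted p = 0.049), and DESeq2 also called it lower. Arntl was also called lower with no filter on low counts (-0.59) and with cells thinned to 400000 counts (-0.61). In the settings that follow, its log2 difference was smaller and not called. In the 3 well columns next to the border of the gates it was -0.41. Without cells high in a chromosome 8 run, described below, it was -0.37, and without these and the G2/M-rich cells -0.45. Of the 5 listed RORE genes none was called in either direction. Cry1 had a log2 difference of 0.096 ± 0.098 with an adjusted p of 0.71, Clock one of -0.092 ± 0.12 with an adjusted p of 0.79, Nfil3 one of -0.40 ± 0.25 with an adjusted p of 0.49, and Npas2 was under 1 CPM in every sum. Of 9 other clock genes 8 were tested and none was called. Rora, which encodes an activator of ROREs, went from 23.3 to 31.4 CPM on plate 1 and from 27.4 to 33.9 CPM on plate 2 (0.37 ± 0.088, adjusted p = 0.12).

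**Figure D1:**
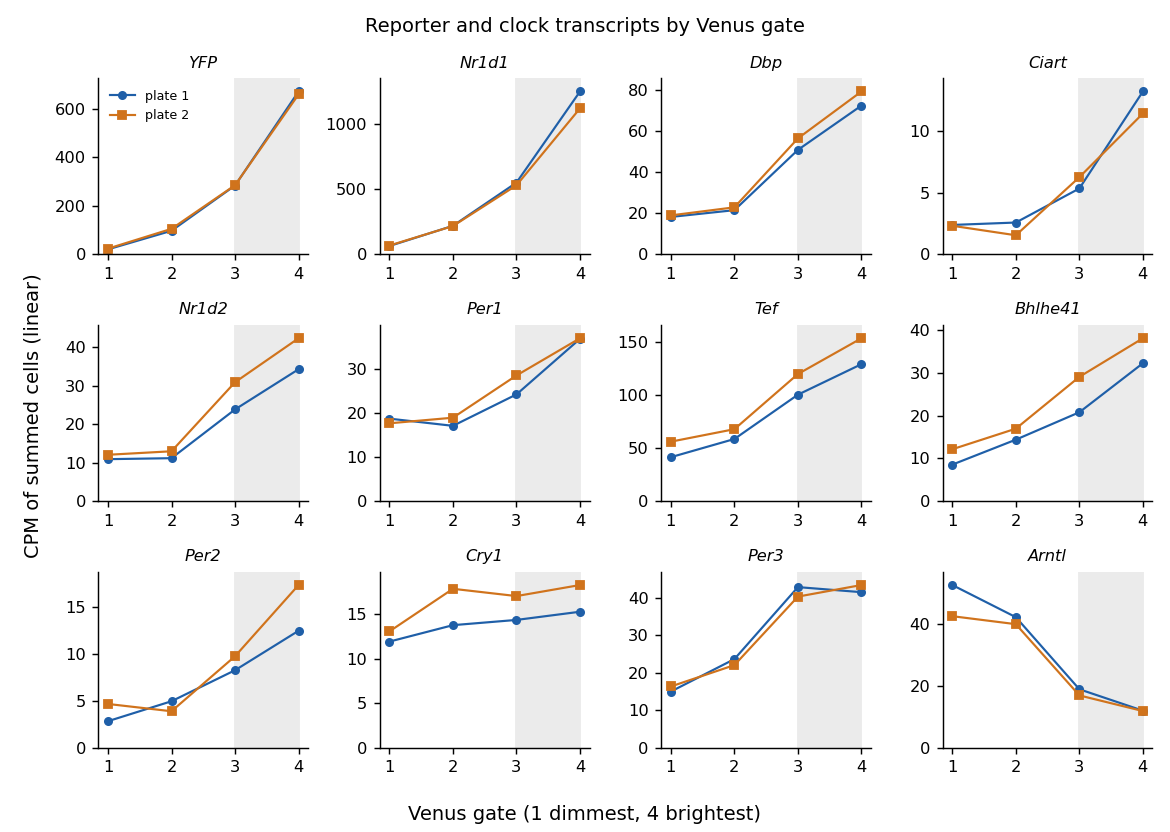
Level of the Venus reporter transcript and 11 clock genes (CPM of summed cells, linear axes from 0) in the 4 Venus gates, dimmest to brightest. Lines join the sums of plate 1 (circles) and plate 2 (squares), and the shaded span is the step from gate 3 to gate 4. YFP and Nr1d1 climbed steeply on both plates, Per3 and Cry1 hardly moved at the last step and Arntl was lowest in gate 4.

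Of 18430 genes tested, 48 were called between the gates (0.26%), 26 higher (0.141%) and 22 lower (0.119%) in gate 4. All 48 had the same direction on both plates, and in none did the gate 3 and gate 4 values overlap, as was also the case for 43.1% of all genes. Of the earlier single steps, 52 genes were called from gate 1 to gate 2 (0.282%) and 12 from gate 2 to gate 3 (0.0651%). Over both of those steps, from gate 1 to gate 3, 789 were called (4.28%), 351 higher (1.9%) and 438 lower (2.38%). In the fit with no replicate block 2 genes were called at the last step, YFP and Nr1d1, while DESeq2 called 969. A fit limited to the 4 sums of these gates called 65, of which 21 were among the 48. After the reporter and Nr1d1, the largest rises at a mean log2 CPM of at least 3 were in Ucma, a secreted cartilage matrix protein, Foxc2, a forkhead transcription factor, Akr1b3, aldose reductase, the RNA helicase Ddx39 and the small heat shock protein Cryab. Ucma went from 6.69 to 15.7 CPM on plate 1 and from 4.88 to 13.4 CPM on plate 2 (1.35 ± 0.18, adjusted p = 0.043). Akr1b3 went from 89.8 to 155 CPM on plate 1 and from 105 to 144 CPM on plate 2 (0.62 ± 0.083, adjusted p = 0.042). Ddx39 went from 93.8 to 151 CPM on plate 1 and from 101 to 145 CPM on plate 2 (0.61 ± 0.065, adjusted p = 0.029). Cryab went from 266 to 409.7 CPM on plate 1 and from 246 to 357 CPM on plate 2 (0.58 ± 0.059, adjusted p = 0.029). The chaperone Hsp90aa1 rose by less, from 254 to 353 CPM on plate 1 and from 249 to 337 CPM on plate 2 (0.46 ± 0.044, adjusted p = 0.029), with plates that nearly coincided. With G2/M-rich cells left out its log2 difference was 0.18 (adjusted p = 0.39). Glt8d2, a glycosyltransferase gene whose exons overlap those of Tdg on the other strand, also rose (0.50 ± 0.067, adjusted p = 0.043).

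The 22 falls were led by Tnc among genes at a mean log2 CPM of at least 3. Tnc, which encodes the matrix glycoprotein tenascin C, went from 24.3 to 11 CPM on plate 1 and from 23.01 to 10.7 CPM on plate 2 (-1.12 ± 0.12, adjusted p = 0.029). In gates 1 to 3 Tnc had lain between 23.01 and 31.9 CPM, with a log2 difference of -0.054 between gates 1 and 3. Mmp11, a matrix metalloproteinase, went from 70.1 to 43.1 CPM on plate 1 and from 58.9 to 34.9 CPM on plate 2 (-0.73 ± 0.059, adjusted p = 0.015). Marcks and Marcksl1, membrane-bound regulators of actin, fell again after called falls from gate 1 to gate 3. Marcks went from 115 to 68.3 CPM on plate 1 and from 82.5 to 57.9 CPM on plate 2 (-0.64 ± 0.084, adjusted p = 0.042), with gate 3 higher on plate 1 than on plate 2. Marcksl1 went from 46.8 to 25.1 CPM on plate 1 and from 39.8 to 26.8 CPM on plate 2 (-0.74 ± 0.085, adjusted p = 0.029). Ddah1, which breaks down methylated arginines, went from 66.2 to 39.2 CPM on plate 1 and from 53.4 to 35.4 CPM on plate 2 (-0.68 ± 0.066, adjusted p = 0.029), and gates 1 to 3 had differed by a log2 of -0.024. The other named falls were in Fam210b, Atp13a2, Ece1, Rasa4, Gadd45a, Dtx3, Prkra, Btg1 and Plscr3, with log2 differences from -0.65 (Fam210b) to -0.45 (Plscr3). Among them, Ece1 encodes an endothelin-converting enzyme, Btg1 an antiproliferative factor, and Gadd45a a stress gene on the p53 target list, whose exons overlap those of E230016M11Rik on the other strand. Outside the naming rule but shown for completeness, the proteoglycan gene Vcan (-0.40 ± 0.055, adjusted p = 0.046), the translation elongation factor gene Eef2 (-0.36 ± 0.040, adjusted p = 0.029), Mxra7 and Mcrip1 also fell, and the tetraspanin gene Cd9 rose (0.37 ± 0.045, adjusted p = 0.033). The remaining calls were the low genes Sdc3 and Sh2d4a, both described with the bends, and 2 genes with clone names.

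**Figure D2:**
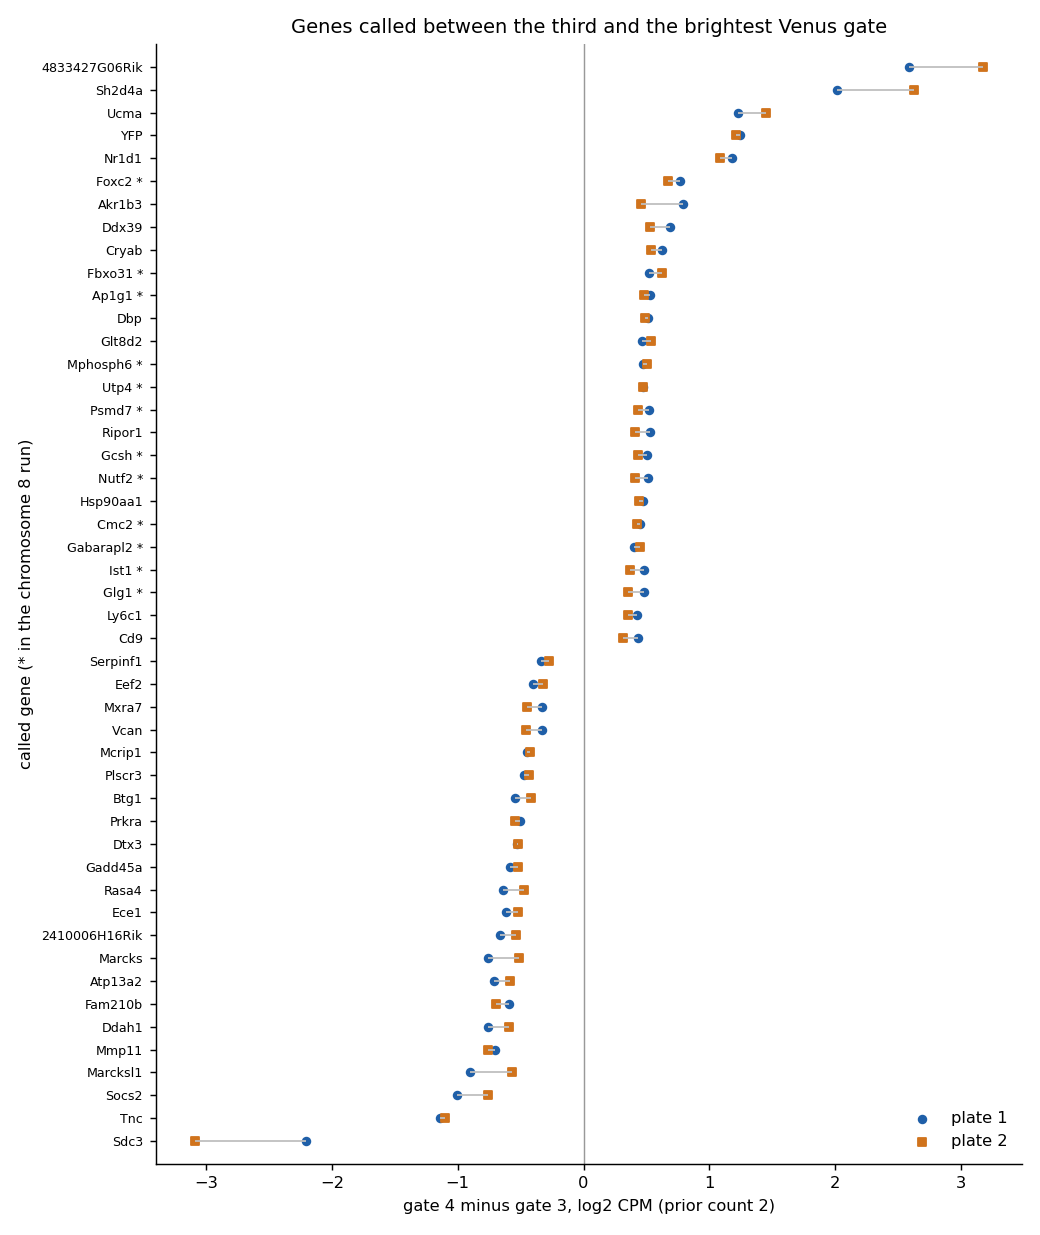
Difference between gate 4 and gate 3 (log2 CPM with a prior count of 2) for the 48 called genes, one row per gene, with plate 1 as circles and plate 2 as squares. Both plates lie on the same side of 0 for every gene, and 12 of the 26 higher genes, starred, belong to a run of neighbours on chromosome 8.

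Nearly as many of the called rises came from a single stretch of chromosome 8 as from the rest of the genome. The 8921 placed genes whose mean log2 CPM reached 3 were put in their order along the chromosomes (GENCODE M21, GRCm38, used for order only). The search was made after the calls were seen. Stretches were sought on plate 1 as runs of at least 20 genes over which the median step of 15 neighbours exceeded 0.15 in size. The longest of the 6 runs reached from Ctcf to Zfp469 on chromosome 8 and held 104 genes. Their median step was 0.34 on plate 1, which chose them, and 0.28 on plate 2, which did not. On plate 2, 94 of the 104 were higher in gate 4. The 400 other chromosome 8 genes at this level had medians of 0.0084 and 0.049, and the 8817 genes outside the run had -0.036 and -0.026. The run's median moved less at the earlier steps. From gate 1 to gate 2 it was 0.040 and 0.042 on plates 1 and 2, and from gate 2 to gate 3 it was 0.038 and 0.10. No run gene was called at either of these single steps. Over both, from gate 1 to gate 3, 16 of the 104 were called in either direction, beside 4.28% of all genes.

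The run held 12 of the 26 called rises and none of the 22 called falls. Of its genes 11.5% were called higher, beside 0.125% of the 8817 genes outside it at a mean log2 CPM of at least 3. Plate 1's step chose the run and also enters the calls, so this excess is partly fixed in advance. In the fit limited to the 4 sums of gates 3 and 4, 3 of its 65 calls lay in the run. Its called members have unlike functions: Foxc2, the proteasome subunit Psmd7, the ubiquitin ligase component Fbxo31, the clathrin adaptor subunit Ap1g1, the ribosome assembly factor Utp4, the RNA exosome cofactor Mphosph6, the glycine cleavage protein Gcsh, the nuclear import factor Nutf2, the autophagy protein Gabarapl2, Cmc2, Ist1 and Glg1. Psmd7 went from 284 to 406 CPM on plate 1 and from 314 to 424 CPM on plate 2 (0.48 ± 0.054, adjusted p = 0.029). Foxc2 went from 27.8 to 47.1 CPM on plate 1 and from 29.9 to 47.7 CPM on plate 2 (0.72 ± 0.071, adjusted p = 0.029). Fbxo31 went from 56.9 to 81.5 CPM on plate 1 and from 53.3 to 82.3 CPM on plate 2 (0.57 ± 0.065, adjusted p = 0.029). In Foxc2 and Fbxo31 gates 1 to 3 had been level and gate 4 stood apart. Ripor1, called higher (0.47 ± 0.063, adjusted p = 0.042), is the neighbour just outside the run on the Ctcf side. Past Zfp469 the 5 next genes had median steps of -0.12 on plate 1 and -0.21 on plate 2. The 5 genes before Ctcf had medians of 0.27 and 0.12, so the edge on that side was not sharp. Inside the run, its end genes Banp and Zfp469 were at -0.035 and -0.16 on plate 2. The detoxifying enzyme gene Nqo1 lies in the run and went from 303 to 476 CPM on plate 1 and from 446 to 569 CPM on plate 2 (0.49 ± 0.12, adjusted p = 0.12).

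**Figure D3:**
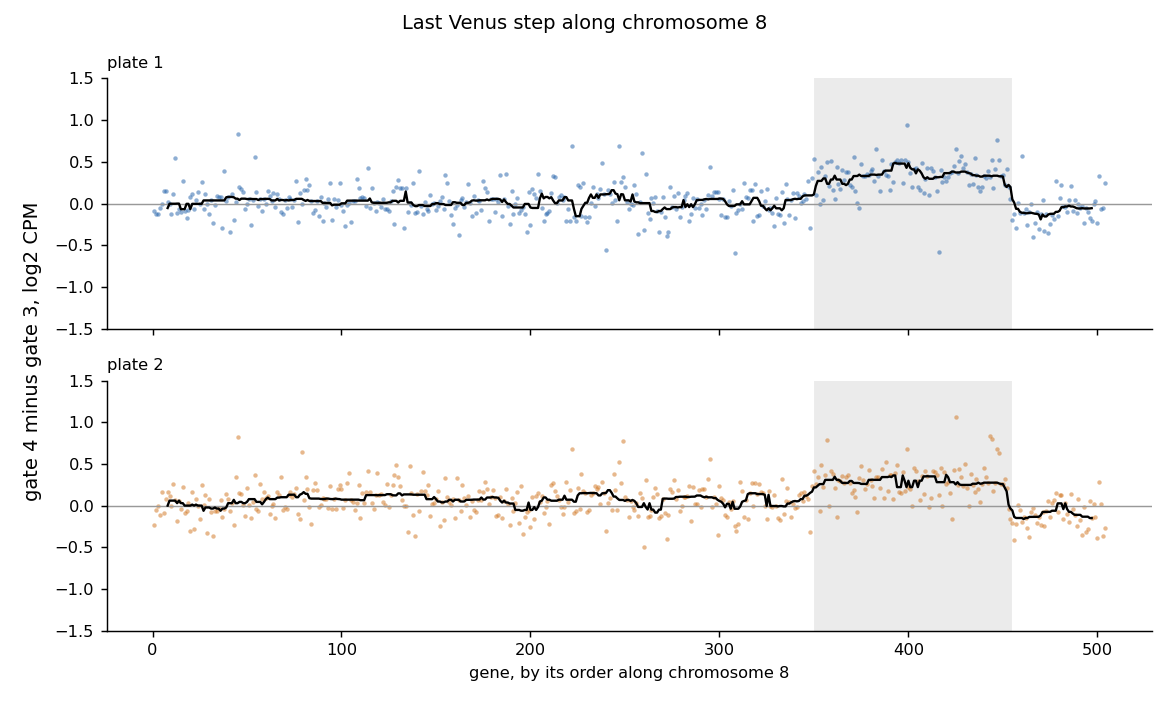
Step from gate 3 to gate 4 (log2 CPM) of 504 chromosome 8 genes in their order along the chromosome, plate 1 above and plate 2 below. Points are genes, the black line is the median of 15 neighbours, and the shaded span is the run from Ctcf to Zfp469. The line lifts over the run on both plates, with medians of 0.34 and 0.28, and drops on either side of it, less sharply on the Ctcf side.

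The other 5 runs were shorter and did not all hold on plate 2. The next longest, with 36 genes on the X chromosome, had a median step of 0.22 on plate 1 and 0.0044 on plate 2. A run of 21 genes on chromosome 9 had -0.18 on plate 1 and 0.087 on plate 2, in opposite directions. The 3 runs on chromosome 10 were lower on both plates, with plate 2 medians of -0.042 from Epb41l2 to Rev3l, -0.19 from Abca7 to Abhd17a and -0.15 from BC048403 to R3hdm2.

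In single cells of gate 3 the summed level of the 104 run genes fell into a lower and an upper range, and most cells of the brightest gate lay at the level of the upper one. A boundary of 9500 CPM was set after the values were seen, in the sparse zone between the ranges in gate 3, where 2 cells on each plate lay within 500 CPM of it. On plate 1, 27 of 96 cells (28.1%, interval 19.4% to 38.2%) of gate 3 and 65 of 96 cells (67.7%, interval 57.4% to 76.9%) of gate 4 lay above it (exact Clopper-Pearson 95% intervals, which cover counting error only). On plate 2 the shares were 25 of 96 cells (26.04%, interval 17.6% to 36%) and 61 of 96 cells (63.5%, interval 53.1% to 73.1%). In gates 1 and 2 they were 3.16% and 10.4% on plate 1 and 5.21% and 10.4% on plate 2. The median level of gate 3 cells was 6535 CPM under and 11408 CPM over the boundary on plate 1, and 6819 and 12224 CPM on plate 2. Cells within 500 CPM of the boundary numbered 8, 7 and 10 in gates 1, 2 and 4 of plate 1 and 11, 8 and 4 in those of plate 2. The median over all cells of a gate was 8006, 7067, 7071 and 10932 CPM in gates 1 to 4 of plate 1 and 7138, 7170, 7240 and 11239 CPM in those of plate 2. In gate 1, and in gate 4 of plate 1, values ran on through the boundary with no gap. Cells over the boundary are a range of a score and no cell type, and run genes are higher in them by that choice. The run was chosen on the step of plate 1, so the larger gate 4 share on plate 1 is partly fixed in advance. Plate 2 did not choose the run.

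**Figure D4:**
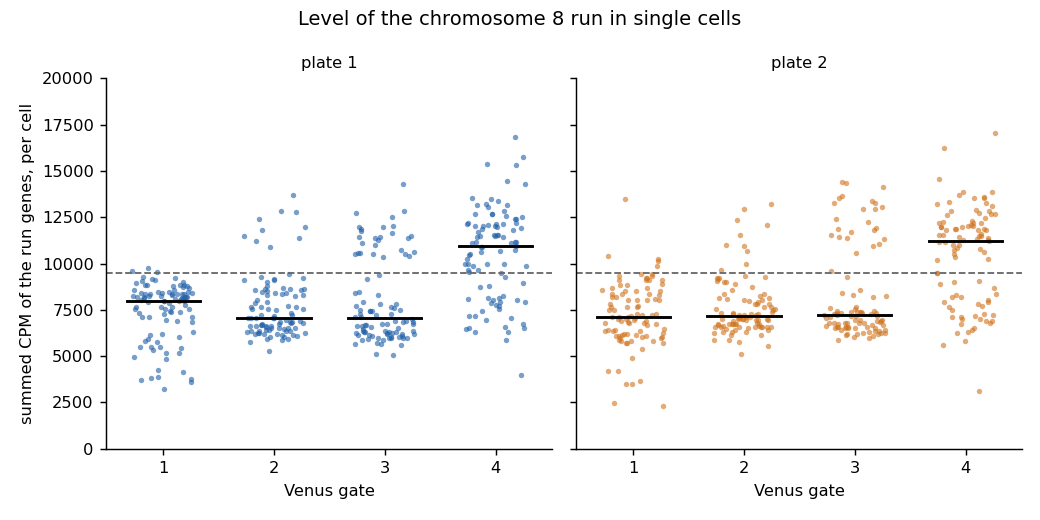
Summed level of the 104 run genes in each kept cell (CPM, linear axis) by Venus gate, plate 1 left and plate 2 right. Points are cells, black bars are gate medians and the dashed line is 9500 CPM. Gate 3 cells form a dense lower and a sparse upper group, and in gate 4 most cells lie above the line on both plates.

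Several genes outside the run differed between the same cells within a gate. In gate 4, Marcks was at 45.2 against 118 CPM in cells over against under the boundary on plate 1, and 42.5 against 91.5 CPM on plate 2. Tnc was at 5.96 against 21.8 and 4.74 against 22.5 CPM. Ucma was at 19.99 against 7.35 and 21.7 against 0.245 CPM, and Rora at 36.1 against 22.8 and 41.1 against 24.99 CPM. In gate 3, 17 of the 22 genes called lower between gates were also lower in the cells over the boundary on both plates, beside 29.5% of all genes of at least 3 in mean log2 CPM, a level that 21 of the 22 reach. In gate 4 it was 14 of the 22 lower and 3 higher, beside 34.8% of all genes lower. Neither split was tested. The 22 genes were called on sums of these same cells, so list and splits share counts and the splits are no independent support. The reporter was close between the cells in gate 4, at 674 against 685 CPM on plate 1 and 689.8 against 677 CPM on plate 2, and Nr1d1 was at 1265 against 1268 and 1192 against 1127 CPM. In gate 3, YFP was higher in the cells over the boundary, at 357 against 247 and 360.4 against 261 CPM, and so was their median Venus fluorescence, at 9753595 against 7063203 units on plate 1 and 8805475 against 8168814 on plate 2. Socs2, by contrast, was at 36.2 against 33.9 and 37.2 against 44.3 CPM in gate 4.

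With the cells over the boundary left out of all gates, 31 and 35 cells remained in gate 4 on plates 1 and 2, and 20 genes were called, 7 of them among the 48. YFP and Nr1d1 kept their rises, at 1.35 (adjusted p = 0.0017) and 1.21 (adjusted p = 0.0027) in log2, and Socs2 its fall, at -0.97 (adjusted p = 0.049). The log2 difference of Tnc was -0.29 (adjusted p = 0.31), of Marcks -0.24 (adjusted p = 0.30), of Rora 0.013 (adjusted p = 0.98) and of Dbp 0.42 (adjusted p = 0.13). Ucma changed sign, to -0.27 (adjusted p = 0.90). Among the rises, Ddx39 was at 0.64 (adjusted p = 0.049). Most falls kept their size: Ddah1 was at -0.67 (adjusted p = 0.10), Fam210b at -0.64 (adjusted p = 0.13), Mmp11 at -0.64 (adjusted p = 0.097), Btg1 at -0.58 (adjusted p = 0.072) and Prkra at -0.74 (adjusted p = 0.049). All 22 were still lower, with a median of -0.48 against -0.56 with all cells. The median over the run was 0.11. Sums of fewer cells also give fewer calls, and the setting was chosen after the data were seen.

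Genes that bend at the last step were sought over the gates. A gene turned back when its change from gate 1 to gate 3 and its change from gate 3 to gate 4 were both called with opposite signs. These changes share the gate 3 sums, so an error there pushes them in opposite directions. A gene saturated when its change from gate 1 to gate 3 was called and its last step fell short of the mean of the 2 earlier steps in a test of that difference (the bend). Only 3 genes turned back by this rule (0.0163% of those tested). Socs2, a feedback inhibitor of cytokine and growth hormone signalling, was at 44.6, 73.9, 70.3 and 35.1 CPM in gates 1 to 4 on plate 1 and 50.3, 88.6, 64.7 and 38.2 CPM on plate 2. It rose to gate 3 (log2 0.51, adjusted p = 0.031) and fell at the last step (-0.89 ± 0.093, adjusted p = 0.029), to below its gate 1 level on both plates. Serpinf1, which encodes the secreted factor PEDF, was at 676, 898, 839 and 662 CPM on plate 1 and 666, 842, 798 and 661 CPM on plate 2. Its rise (log2 0.29, adjusted p = 0.018) was undone by its fall (-0.31 ± 0.042, adjusted p = 0.044), and gate 4 ended close to gate 1 on both plates. Both genes were also called higher from gate 1 to gate 2, a step that shares no sum with the last one. Sh2d4a met the rule in the other direction at a level under 2 CPM in every sum. None of the 3 met the rule in the fit with no replicate block, which has no term for plate. With G2/M-rich cells left out the last steps of Socs2 and Serpinf1 were -0.81 and -0.20 and neither passed.

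No gene passed the test of the bend in edgeR (0.0%), so none was called saturating. At an unadjusted p under 0.05 there were 2375 genes, limma-voom called 0 and DESeq2 called 538 (2.92%). Per3 had a bend of -0.67 ± 0.11, adjusted p = 0.16. Rnase4, a secreted ribonuclease whose locus is shared with the angiogenin gene, had the lowest adjusted p and was picked out after its values were seen. It dropped steeply over the dim gates, at 76.4, 26.4, 12.9 and 15.1 CPM on plate 1 and 47.4, 19.1, 7.22 and 9.18 CPM on plate 2, and was slightly higher in gate 4 than in gate 3 on both plates (bend 1.6 ± 0.14, adjusted p = 0.081). When the earlier slope was scaled by the log2 distance in Venus fluorescence, which is wider at the last step, 3 genes were called. These were Rnase4 (2.05 ± 0.16, adjusted p = 0.014), YFP (-1.26 ± 0.088, adjusted p = 0.014) and Nr1d1 (-0.91 ± 0.085, adjusted p = 0.044). YFP and Nr1d1 rose less per unit of log2 fluorescence at the last step than before it. The scaled test was one of the alternatives, and the unscaled bend of YFP was -0.62 ± 0.081, adjusted p = 0.13, and of Nr1d1 -0.39 ± 0.078, adjusted p = 0.16.

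A step that shares no sum with the last one is the change from gate 1 to gate 2, where 52 genes were called (0.282%), 28 higher (0.152%) and 24 lower (0.13%). Of the 28 called higher there, 3 were called higher again at the last step (YFP, Nr1d1 and the surface antigen gene Ly6c1), 2 were called lower (Socs2 and Serpinf1), and the median last step of the 28 was -0.10. Ly6c1 went from 325 to 437 CPM on plate 1 and from 306 to 392 CPM on plate 2 (0.39 ± 0.048, adjusted p = 0.033). Of the 24 called lower, the syndecan gene Sdc3 alone was called lower again, from 2.67 to 0.557 CPM on plate 1 and from 3.18 to 0.352 CPM on plate 2 (-2.67 ± 0.29, adjusted p = 0.029), and the median last step of the 24 was 0.12. Ly6c1 and Sdc3 were picked out here after their values were seen.

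**Figure D5:**
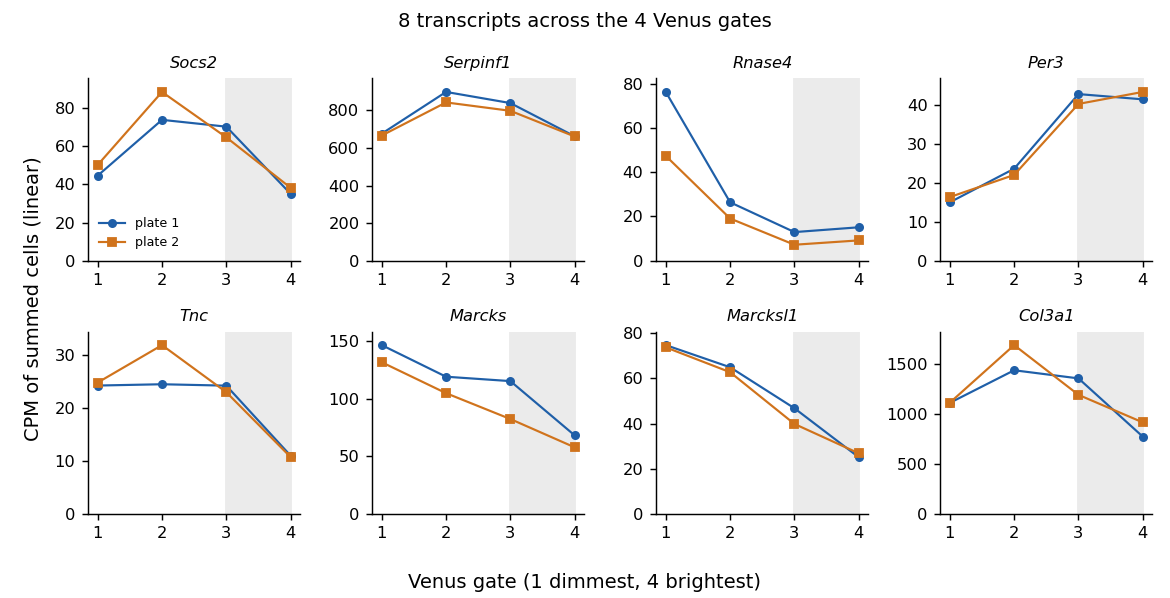
Level of 8 transcripts (CPM of summed cells, linear axes from 0) in the 4 Venus gates, with plate 1 as circles, plate 2 as squares and the step from gate 3 to gate 4 shaded. Socs2 and Serpinf1 rose and turned back, Rnase4 and Per3 hardly moved after gate 3, Tnc dropped at the last step, Marcks and Marcksl1 went on downwards, and Col3a1 was lowest in gate 4.

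Within gate 4, the reporter transcript was higher in the brighter cells. The gate was split on each plate into its 48 dimmer and 48 brighter cells, as a description with no test. This split is also by Venus fluorescence, so the YFP values again check the sort. YFP was at 627 CPM in the dimmer and 726 CPM in the brighter cells of plate 1, and at 622 and 748 CPM on plate 2. Nr1d1 was at 1169 and 1359 CPM on plate 1 and 1071 and 1267 CPM on plate 2, and Ciart at 10.3 and 16.2, then 8.96 and 14.8 CPM. These 3 were higher in the brighter cells on both plates, while Dbp was at 83.3 and 81.6 CPM on plate 2. Of the 24 called rises of at least 3 in mean log2 CPM, 9 were higher in the brighter cells of gate 4 on both plates, beside 19.0% of all genes at that level. Of the 21 called falls at that level, 6 were lower in the brighter cells on both plates, beside 27.6% of all genes.

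Cells rich in G2/M transcripts, which encode the machinery of mitosis, were more frequent in the brightest gate. Cells whose share of counts in 53 G2/M genes lay above the 0.75 quantile of their plate made up 22 of 96 in gate 3 and 41 of 96 in gate 4 on plate 1 (22.9%, interval 14.95% to 32.6%, and 42.7%, interval 32.7% to 53.2%). On plate 2 they were 18 and 38 of 96 (18.8%, interval 11.5% to 28%, and 39.6%, interval 29.7% to 50.1%). In the sums, 50 of the 53 genes were higher in gate 4 on both plates, beside 30.0% of all genes, with a median log2 difference of 0.71, but none was called, and from gate 1 to gate 3 their median was -0.24. The centromere proteins Cenpf and Cenpa led, Cenpf going from 10.9 to 27.5 CPM on plate 1 and from 10.5 to 29.7 CPM on plate 2 (1.41 ± 0.27, adjusted p = 0.088). The 42 S phase genes had a median of 0.23 with none called. With the cells above the quantile left out of all gates, 25 genes were called between gates 3 and 4, 18 of them among the 48. No gene then met the turn-back rule. All 48 called genes kept their direction. The part of these cells in the other differences was not tested further.

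Most other gene groups held no called gene or 1. Among 31 other matrix genes and integrins, of which 30 were tested, Tnc alone was called, in the direction given above. Among 25 collagens and collagen enzymes none was called, and the fibrillar collagen Col3a1 went from 1358 to 774 CPM on plate 1 and from 1193 to 917 CPM on plate 2 (-0.60 ± 0.098, adjusted p = 0.062). Of 35 ribosomal protein genes, 33 were lower on both plates, beside 31.2% of all genes, with a median of -0.17 in log2 and none called in edgeR, while DESeq2 called 18 lower, beside 3.0% of all genes. Rps23, the nearest, went from 1728 to 1430 CPM on plate 1 and from 1511 to 1274 CPM on plate 2 (-0.26 ± 0.038, adjusted p = 0.054). Among 16 heat and cold responsive genes, of which 15 were tested, Hsp90aa1 was called higher, and the cold-inducible Cirbp went from 52.8 to 37.2 CPM on plate 1 and from 54.1 to 37.1 CPM on plate 2 (-0.53 ± 0.091, adjusted p = 0.072). Among 20 p53 targets Gadd45a was called lower, and the cell cycle inhibitor Cdkn1a went from 172 to 215 CPM on plate 1 and from 116 to 193 CPM on plate 2 (0.53 ± 0.094, adjusted p = 0.075). The G1 list, with 15 of 18 genes tested, held none, and its leader Wee1, a checkpoint kinase that holds back entry into mitosis, had a log2 difference of 0.55 ± 0.13 with an adjusted p of 0.11.

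No member was called in the lists of SRF targets (median 0.050), YAP/TAZ targets (-0.13), immediate early genes (-0.028), glucocorticoid targets (-0.082), Id and BMP genes (-0.13), ER stress (-0.039), cholesterol (-0.076), glycolysis and hypoxia (0.11), NRF2 targets (0.10), interferon-stimulated genes (-0.19), respiratory chain subunits (0.026) or mitochondrially encoded genes (-0.12), all in log2. Over all genes 0.26% were called, so lists of this size with no call tell little. Among these lists, DESeq2 called 6 of 21 immediate early genes lower, beside 3.0% of all genes. It called 6 of 21 glycolysis and hypoxia genes higher and 1 lower, beside 417 of 18430 genes higher. The list of chemokines and NF-kB feedback genes had a median of -0.043. Its neutrophil attractants Cxcl1 (1.02 ± 0.15, adjusted p = 0.055) and Cxcl5 (0.69 ± 0.12, adjusted p = 0.066) led among members whose mean log2 CPM reached 3, and neither passed. The low gene Il6, picked out after its values were seen, had a log2 difference of 1.54 ± 0.30 with an adjusted p of 0.088. Of the cholesterol genes, 9 of 20 were called higher from gate 1 to gate 3 (1.9% of all genes), and at the last step 10 of 20 were lower on both plates (31.2% of all genes). Of 8 transcripts that lead over the whole Venus range, a list chosen on these cells, Dbp alone was called at this step.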

How the data were processed

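FLASH-seq, which reads whole transcripts of sorted cells, was run on 2 plates. The deposited table holds raw counts per gene and cell, and the submitters' processing notes name STAR 2.7.11a, SAMtools, bedtools and HTSeq and the builds GRCm39 and mm39. Strand use and molecular identifiers are not given in the sources used here. PCR reads without identifiers are not independent molecules. The intervals given are on shares of cells and reflect counting error of cells alone. A deposited table of the sort gives fluorescence and scatter intensity per well in arbitrary units, with the sort population.

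Cells with at least 1000 genes were kept, counts were summed per plate and gate, and the 8 sums (2 plates, 4 gates) were fitted in edgeR 4.0.16 (quasi-likelihood F-test, TMM scaling, filterByExpr, a term for plate, 3 residual degrees of freedom). Adjusted p-values are Benjamini-Hochberg values over 18430 genes, called under 0.05. CPM values are TMM-scaled, except the summed cell type markers and the values of single and split cells, which use plain totals. No 2 cells had identical counts. The plate number in the labels pairs the gates, and plate deviations of different gates correlated across genes at 0.21 to 0.41. Alternatives were DESeq2 1.42.0, limma-voom (limma 3.58.1), other scalings, filters and cells. The edgeR fit was also run on simulated sums with the same spread for every gene and no plate difference. That setting differs from these data, so it cannot show how reliable the calls are here. Features without a symbol held 1.07% of counts. Doublets were not called, since each well received 1 sorted cell.

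The members, gene lists and tests were chosen with earlier results of these data known. Named genes are the reporters, the clock list, the 15 largest called rises and falls at a mean log2 CPM of at least 3 with a symbol, genes that turn back, and the 2 leading members of each list. Of the genes that meet this rule, 1 is not reported here.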

Additional observations from a re-analysis of the deposited data

How the results depend on the processing

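The 48 calls became 2 with no replicate block (YFP and Nr1d1), 969 with DESeq2, 133 with limma-voom, 442 with no filter on low counts, 186 with cells thinned to 400000 counts, 25 without cells of high G2/M share, 5 in the 3 well columns next to the border of the gates, 20 without the cells over the run boundary and 0 without these and those of high G2/M share (2447 at an unadjusted p under 0.05). The last 2 settings were chosen after seeing the data, and the last 4 hold fewer cells. In the setting with 0 calls, 19 and 17 cells remained in gate 4 of plates 1 and 2. There YFP and Nr1d1 also lost their calls, at log2 differences of 1.28 and 1.17. With only the 4 sums 65 were called, but 21 of them were among the 48, and 17 of the 33 called genes that are named lost their call. The counts were 49, 59, 48 and 49 with RLE scaling, no TMM, stricter cells and at least 8000 genes per cell, sharing 48, 44, 48 and 48 genes with the main calls. Without TMM the median of all genes moved to 0.041 and the calls split into 41 higher and 18 lower. The bend count of 0 became 538 with DESeq2, 142 with no filter, 2 with thinned cells and 3 with the Venus-scaled slope. The 3 turn-back genes became 0 with no replicate block, without high G2/M cells, in the border columns and without both kinds of cells, 120 with DESeq2, 7 with limma-voom, 46 with no filter and 15 with thinned cells. The 3 called reporter and clock genes became 12 with DESeq2, 6 with limma-voom, 9 with no filter, 7 with thinned cells, 0 without both kinds of cells, and 2 with only the 4 sums, with no replicate block, in the border columns and without the cells over the run boundary. Dbp lost its call in the settings that gave 0 or 2, and without high G2/M cells. Each plate alone is a value with no test: all 33 called genes that are named kept their sign on either plate. For the largest rises and falls the naming rule asks for this, so it is no separate check. The plates alone gave -0.0074 and 0.20 for iRFP, -0.046 and 0.11 for Per3, 0.050 and -0.24 for Clock, and 0.11 and -0.0061 for Bhlhe40 (plate 1, then plate 2). Signs changed for Per3 (-0.0027) in the border columns, and for Cry1 (-0.13) without high G2/M cells. Without the cells over the run boundary they changed for Per3 (-0.049), Bhlhe40 (-0.041), Nfil3 (0.17), Ucma (-0.27) and Nqo1 (-0.21), and without both kinds for Per3 (-0.18), Bhlhe40 (-0.062), Nfil3 (0.59), Glt8d2 (-0.013), Fos (0.0094), Rnase4 (-0.22), Nqo1 (-0.13) and Trib3 (0.31). Beyond what the number of cells or genes explains by construction, the cause was not tested. Genes under 1 CPM, such as Hlf and Npas2, rest on few counts, and what limits the others was not tested.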
